A study of Drosophila melanogaster with 3 samples.

Results

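Among the dm6 peaks that passed the study's threshold on the irreproducible discovery rate (IDR) for tagged Ets65A, 313 lay in intergenic DNA away from promoters and 2467 did not (11.3% of all IDR peaks, 95% Wilson interval 10.1% to 12.5%, which covers counting error over peaks only). A peak was taken when its summit, the position of highest signal within it, was more than 500 bp from the transcription start site (TSS) of every protein-coding gene and inside no annotated gene of any biotype, transposable elements left out. Under the same scheme 1642 IDR peaks were promoter peaks, with a summit at most 500 bp from such a TSS, 742 were intronic and 83 exonic. The material was chromatin from whole Drosophila melanogaster embryos of mixed sex, collected over 0 to 24 h, of the strain ets3-GFP, a transgenic line that stably expresses Ets65A with GFP at its C-terminus. It was sonicated to fragments of 200 to 800 bp and precipitated with an anti-GFP antibody, although the antibody field of the labels names Ets65A. All 3 biological replicates belong to 1 group, 1 line and 1 fusion protein, and neither the promoter that drives the fusion nor a comparison with another tissue or age is given in the labels. Each value pools the binding of all cell types and ages in the embryos, so that few cells with strong binding and many cells with weak binding cannot be told apart.

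Ets65A belongs to the ETS family of transcription factors, whose DNA-binding domain recognises a GGAA core with flanking bases that differ between family members. In the compact fly genome, DNA between genes holds promoters, insulators and many enhancers, and an enhancer can act on a gene other than the nearest one. The nearest genes are therefore given as neighbours and not as targets.

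The sequences around 6 of the 9 strongest of these peaks that all replicates supported are shown first, because the motif counts below are counts of letters in such windows. A peak counted as supported by a replicate when at least 1 bp of it overlapped a peak among the strongest in that replicate's own list, read down to as many peaks as the IDR list holds. Each window of 201 bases is centred on the summit and was read from the plus strand of the dm6 assembly (RefSeq copy of Release 6), and is named by the flanking protein-coding genes. Capitals mark the 6-base words that were more frequent at summits than in flanking DNA, on either strand; the words are given with their counts further on.
mtSSB/tara, chr3R:16222399-16222599: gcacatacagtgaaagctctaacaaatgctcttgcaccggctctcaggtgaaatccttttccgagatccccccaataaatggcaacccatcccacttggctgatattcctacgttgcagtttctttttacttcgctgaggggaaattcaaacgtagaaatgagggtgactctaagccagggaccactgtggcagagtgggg
dpr17/CG4702, chr3R:12121267-12121467: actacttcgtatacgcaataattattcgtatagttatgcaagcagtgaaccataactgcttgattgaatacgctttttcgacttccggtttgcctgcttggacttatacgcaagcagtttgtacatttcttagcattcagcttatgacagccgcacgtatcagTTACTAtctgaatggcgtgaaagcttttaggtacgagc
C15/sp3, chr3R:21520279-21520479: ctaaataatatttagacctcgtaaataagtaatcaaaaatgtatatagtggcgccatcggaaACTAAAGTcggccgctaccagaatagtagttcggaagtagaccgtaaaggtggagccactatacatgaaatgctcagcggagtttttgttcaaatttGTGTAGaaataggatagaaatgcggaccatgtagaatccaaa
Cyt-c1L/eEF1gamma, chr3R:29214365-29214565: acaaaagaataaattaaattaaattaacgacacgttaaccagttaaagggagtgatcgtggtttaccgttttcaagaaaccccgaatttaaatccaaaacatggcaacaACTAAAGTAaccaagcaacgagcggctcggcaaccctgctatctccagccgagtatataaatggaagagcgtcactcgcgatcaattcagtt
RFeSP/chinmo, chr2L:1638699-1638899: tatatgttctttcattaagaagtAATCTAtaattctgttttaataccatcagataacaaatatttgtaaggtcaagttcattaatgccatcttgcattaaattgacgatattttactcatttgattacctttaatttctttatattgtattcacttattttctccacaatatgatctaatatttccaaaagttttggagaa
CG9452/Cpr76Ba, chr3L:19516617-19516817: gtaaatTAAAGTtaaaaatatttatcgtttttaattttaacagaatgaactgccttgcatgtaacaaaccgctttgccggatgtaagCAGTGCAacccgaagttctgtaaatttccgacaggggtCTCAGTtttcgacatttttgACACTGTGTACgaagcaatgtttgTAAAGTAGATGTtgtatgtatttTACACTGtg

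The peak between CG9452 and Cpr76Ba held 10 of these words, while the strongest one, between mtSSB and tara, held none. The next lines show the octamer CCGGAAGT, a preferred ETS site, in capitals with 10 bases on each side. It was found within 100 bp of 6 summits, 4 of which are printed.
dpr17/CG4702, chr3R:12121337-12121364: cgctttttcgACTTCCGGtttgcctgct
jp/brwl, chr2L:9567461-9567488: caaatctataCCGGAAGTagcatgcgcc
CG5111/msi, chr3R:25515506-25515533: gcatacgggaCCGGAAGTtagagagcgc
Dip-B/tal-1A, chr3R:13802360-13802387: ggctacgaaaCCGGAAGTgaattcctaa

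The peaks had signal values, the authors' score per peak in the IDR list, of 71.8 to 651 with a median of 105.3. The median was 107.7 for intronic and 112.1 for promoter peaks. Of the 313, 39 reached a signal of 200, 136 stayed under 100, and 141 (45.0%) were among the 50% of IDR peaks with the highest signal. The highest deposited -log10 q, 3.70, was shared by 286 of the 313 and the lowest was 3.23, so peaks were ranked by signal. Most (262) were exactly 390 bp wide, 50 were narrower and 1, beside chinmo, was wider.

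By arm, 46 peaks lay on X, 75 on 2L, 45 on 2R, 78 on 3L, 64 on 3R and 5 on chromosome 4. The bases that meet the rule came to 37.3 Mb, 27.8% of these arms, which gives 8.40 peaks per Mb. The rate was lowest on 2R, with 5.92 per Mb, and reached 10.8 on 2L and 19.7 on chromosome 4, where only 0.253 Mb of bases met the rule. On chromosome 4 intergenic peaks were 5 of the 12 IDR peaks (41.7%), with dati, lgs, fuss, toy, Asator, zfh2, myo and ey as neighbours.

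The 313 peaks were closer to a TSS than the bases that could have held them. Their median distance to the nearest protein-coding TSS was 3275 bp, against 8600 bp over all bases that meet the rule. The rate fell from 26.8 per Mb at 501 to 1000 bp (56 peaks) to 19.2 up to 2000 bp (66) and 10.2 up to 5000 bp (77). It was 7.27 and 7.34 per Mb in the next bins, up to 10000 and 20000 bp, and 1.25 per Mb beyond (13 peaks, exact Poisson interval 0.667 to 2.14). The share of bases in annotated transposable elements rose over the same bins, from 3.90% to 15.3%, and its part in the decline was not tested. No step in signal was seen at the limit: the 20 peaks 501 to 600 bp from a TSS had a median signal of 108.5, and the 21 non-genic peaks 401 to 500 bp away had 106.5. The 5 nearest members, at 502 to 513 bp, had signals of 230.8, 83.8, 73.5, 97.0 and 101.6, and the 5 nearest peaks left out, at 467 to 494 bp, had 178.6, 106.5, 101.1, 87.6 and 449.4.

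**Figure D1:**
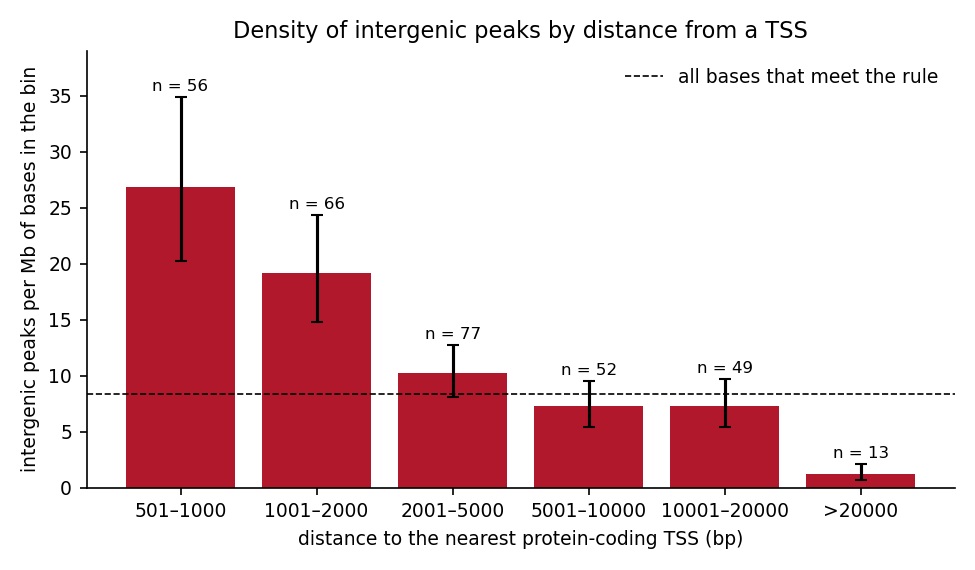
Intergenic peaks per Mb of qualifying bases (y axis) by distance to the nearest protein-coding TSS (x axis, bp). Bars give the rate, error bars the exact 95% Poisson interval (counting error only), and the dashed line the rate over all bins, 8.40; the rate falls from 26.8 to 1.25.

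The stretches that held them were short, with a median of 12815 bp between the flanking protein-coding genes against 27564 bp over all qualifying bases. The flanking genes pointed away from each other at 108 peaks (34.5%, against 24.6% of bases), ran in the same direction at 142 (45.4%, against 52.3%) and pointed towards each other at 63 (20.1%, against 23.1%). Peaks between convergent genes lay farther from a TSS, at a median of 5383 bp, than those between divergent genes, at 2471 bp. Convergent genes turn their 3' ends to the gap, so their TSSs tend to lie at the far ends. The same median over the qualifying bases of each orientation was not computed. The median signals were 106.3 between convergent and 107.1 between divergent genes. The summit windows had 37.5% GC, against 40.5% over all qualifying bases and 41.4% in windows 500 bp away. Repeats masked in the assembly made up 16.8% of the windows and 26.5% of the bases. A single summit (0.319% of peaks), 709 bp from the cell adhesion gene ed, lay in an annotated transposable element, a class that covers 10.7% of the bases.

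Counting genes of every biotype, the nearest was protein-coding for 208 peaks, a long noncoding RNA or other ncRNA for 93 and a tRNA for 9. A pseudogene, an snRNA and a snoRNA were nearest to 1 peak each, and 20 peaks lay within 500 bp of the TSS of a noncoding gene. The flanking protein-coding genes numbered 488, which is 3.5% of the 13945 on the arms. Of these 488, 78 (16.0%) had an IDR summit within 500 bp of a TSS of their own, close to the 15.8% of all protein-coding genes. Both flanking promoters were bound at 8 peaks, 1 of them at 95 and neither at 210.

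Among the 20 strongest supported peaks, all with a signal of at least 280.0, the flanking genes were divergent in 10, and a noncoding gene was nearest in 9. The strongest (chr3R:16222341-16222635, signal 651) lay 3152 bp upstream of tara, which encodes a nuclear regulator of the cell cycle, and 896 bp from lncRNA:CR45643. Its signal was 173.1, 258.1 and 220.9 in the lists of replicates 1, 2 and 3. A second peak in the same stretch, 1147 bp from tara, had 40.1, 124.2 and 134.8, so that replicate 1 was far below the others there. The promoter of mtSSB, the mitochondrial single-stranded DNA-binding protein on the other side, was bound, and that of tara was not.

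The next (chr2R:13035186-13035491, signal 603) lay between Su(z)2, a Polycomb group gene, and CG13323, with 166.0, 247.2 and 190.9 in the replicates. The peak between dpr17, which encodes an immunoglobulin-domain protein of the cell surface, and CG4702 (chr3R:12121225-12121520, signal 593) had 226.8, 213.0 and 149.7. All 3 lists placed it among their 65 strongest, and it carries the ETS octamer printed above. The peak 549 bp upstream of sp3 (chr3R:21520236-21520522, signal 583), whose other neighbour is the homeobox gene C15, had 173.7, 218.1 and 188.4. Each of these 4 peaks was several times the median of 28.1, 42.6 and 38.0 for the intergenic peaks in replicates 1, 2 and 3. Their choice by signal and by support in all replicates made this likely.

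The peak between Cyt-c1L, a cytochrome c1 relative, and eEF1gamma, a translation elongation factor subunit (chr3R:29214287-29214592, signal 505), was 97 bp from lncRNA:CR31044 and had 114.7, 183.1 and 208.7 in the replicates. The peak between blw, the alpha subunit of mitochondrial ATP synthase, and CycB, which encodes cyclin B (chr2R:22802819-22803113, signal 482), had 122.2, 204.3 and 169.2. Its summit lay in a gap of only 1340 bp between the 3' ends of these convergent genes. The gap was shorter still at Sol1 and the cytochrome P450 gene Cyp9f2 (437 bp, signal 292.9).

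The peak 643 bp upstream of CG14762, with the eye and head homeobox gene Optix on its other side (chr2R:8014280-8014509, signal 391), had 143.8, 136.8 and 111.7. Between the forkhead segmentation genes slp1 and slp2, the stronger of 2 peaks (chr2L:3832405-3832649, signal 353.6) had 124.4, 121.2 and 104.5, and the weaker 24.4, 41.2 and 36.1. Replicate 1 was highest at the Optix peak and at the stronger slp peak, unlike at tara.

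Other peaks of the 20 had signals of 280.0 to 391. Their neighbours were CG9452 and the cuticle protein gene Cpr76Ba; the junctophilin gene jp and brwl; dati and lgs, which encodes a coactivator of Wnt signalling; CG3149 and the metalloprotease gene AdamTS-B; Rim, an active zone component, and cpo, an RNA-binding protein of the nervous system; Boot and Ctu1, with the snoRNA host gene Uhg4 76 bp away; CG43131 and RabGGTa, a subunit of the enzyme that prenylates Rab proteins. The lowest signals among the 20 were 40.1, 100.5 and 81.7 in replicates 1, 2 and 3. The lowest rank any of them took was 840 in replicate 1, 243 in replicate 2 and 274 in replicate 3. At jp and brwl replicate 1 was the lowest, with 63.4 against 121.7 and 153.8.

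**Figure D2:**
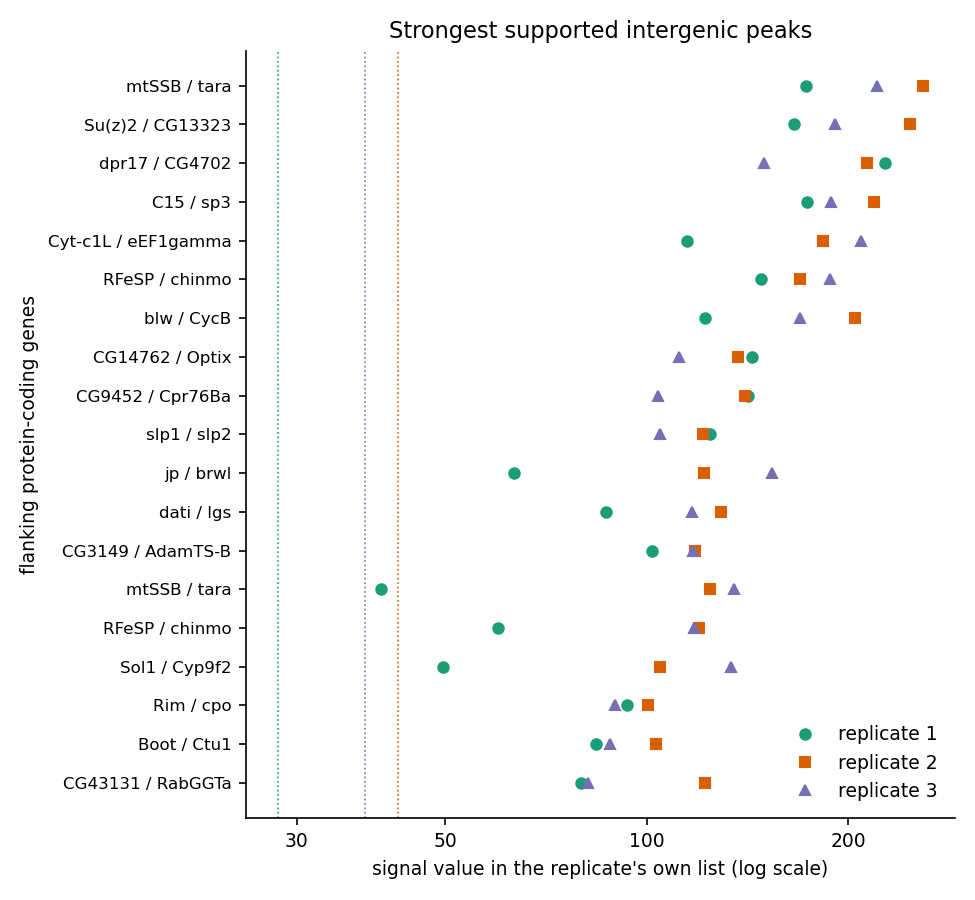
Signal value in each replicate's own list (x axis, log scale) for 19 of the 20 strongest supported intergenic peaks, named by flanking protein-coding genes (y axis) and sorted by IDR signal. Dotted lines mark the medians over the intergenic peaks, 28.1, 42.6 and 38.0 in replicates 1, 2 and 3. Every point lies to the right of its replicate's median, which the choice by signal and support made likely. Replicate 1 lies apart at the second tara peak, with 40.1.

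Most intergenic peaks stood alone. The nearest other IDR peak of any class was a median of 10455 bp away, against 5989 bp for intronic and 7068 bp for promoter peaks. When successive intergenic peaks within 5000 bp were joined, 65 of the 313 (20.8%) fell into 29 groups: 25 pairs, 2 groups of 3, 1 of 4 and 1 of 5. Of the 313, 11 overlapped another IDR peak, and 8 shared their peak in all 3 replicate lists with another intergenic peak, so those are not separate observations.

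The largest group lay between RFeSP, which encodes the Rieske iron-sulfur protein of respiratory complex III, and chinmo, which encodes a BTB zinc finger protein of temporal patterning in neurons. This stretch of 37097 bp held 7 intergenic peaks, 5 of them in the group, the most beside any gene together with the 7 beside hng3 and the 7 beside CG13898. The strongest (chr2L:1638575-1638993, signal 503) lay 12459 bp from chinmo and had 148.3, 169.5 and 188.1 in replicates 1, 2 and 3. The next (chr2L:1632757-1632960, signal 298.9) lay 18421 bp from chinmo and had 60.0, 119.6 and 117.4. The other 5 had signals of 83.8 to 149.8, and 2 of them were supported by all replicates. Replicate 2 was highest in 3 of the 7 and replicate 3 in 4. The promoter of RFeSP was bound and that of chinmo was not.

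**Figure D3:**
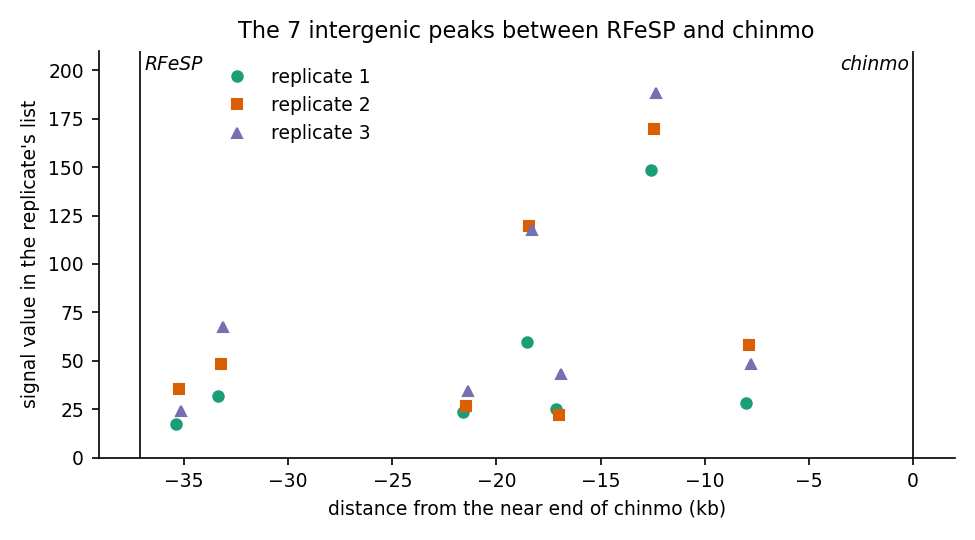
Signal value in each replicate's own list (y axis) of the 7 intergenic peaks between RFeSP and chinmo, by distance from the near end of chinmo (x axis, kb; points of 1 peak are set slightly apart). The peak 12459 bp from chinmo stands above the others in all 3 replicates, at 148.3 to 188.1.

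The group of 4 lay between CG44362 and CG7560 (summits from chr3L:11416928 to chr3L:11422497), with signals of 84.3 to 161.2. Its 3 strongest peaks were 31.2 to 72.9 in the replicates and were supported by all of them. The groups of 3 lay between COX7AL2 and CG31668 (signals 103.1 to 241.2) and between CG13321 and Psc. Psc, a subunit of Polycomb repressive complex 1, flanked 5 intergenic peaks. In its group the summits at signals 261.8 and 108.8 lay 224 bp apart in overlapping peaks that matched the same peak in every replicate list.

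Of the 5 peaks farthest from a TSS, 4 had signals of 74.0 to 79.9, below the intergenic median of 105.3, and 1, with 121.9, was above it and was supported by all replicates. The farthest, 59496 bp from Cyp12e1, the gene of the nearest TSS, had hth, a homeobox gene, as the other neighbour, a signal of 75.3, and 15.1, 39.6 and 16.9 in the replicates. The others were the peak between the cell death genes grim and rpr (44415 bp, signal 74.0), that between CG6414 and CG43689 (39635 bp, 76.7), that between bab1 and bab2, BTB genes of limb and abdomen patterning (37724 bp, 79.9), and that between NijA and CG43245 (36636 bp, 121.9). The peak at NijA and CG43245 had 36.3, 39.3 and 41.0 in the replicates. The bab1 and bab2 summit was 877 bp from the end of bab2, so a large distance to a TSS did not always mean a large distance to a gene.

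All 3 replicates supported 168 of the 313 peaks (53.7%), while 95 were supported by 2, 48 by 1 and 2 by none. Over all IDR peaks 59.4% were supported by all 3. The share was 57.5% for intronic peaks (427 of 742), a difference of -3.87 percentage points (95% Newcombe interval -10.4 to 2.65, Fisher's exact test, two-sided, Benjamini-Hochberg adjusted p = 0.249). Against promoter peaks (1006 of 1642, 61.3%) the difference was -7.59 points (-13.6 to -1.65, Fisher's exact test, adjusted p = 0.0280). These p-values are over peaks, which are not replicates. The second difference depended on how support was defined: it was 0.286 points when each replicate list was read to 2 times as many peaks, and 0.802 points within the 50% of IDR peaks with the highest signal. Without replicate 1 it was -5.72 points and without replicate 3 -5.90 points, with adjusted p-values of 0.0898 and 0.0861 (Fisher's exact test).

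Counted for each replicate whether or not the others supported the peak, the share supported was 74.8%, 85.9% and 76.4% for replicates 1, 2 and 3. All 313 overlapped some peak of replicates 2 and 3, and 308 some peak of replicate 1, in lists of 30000 peaks each. Support rests on signal rank and followed signal: all 78 of the strongest (signals from 144.2) were supported by all replicates, against 2 of the 78 weakest (up to 84.3). The 2 peaks without support were beside vvl, with 19.3, 28.9 and 21.8 in the replicates, and between Eaf6 and Blimp-1, with 16.5, 23.6 and 27.1. Both were below the intergenic median in every replicate.

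Signal was also compared within each replicate, using the strongest overlapping peak of its own list. The median of intergenic minus that of intronic peaks on the log2 scale was 0.02, -0.06 and -0.01 in replicates 1, 2 and 3 (mean -0.02 ± 0.04 SD, n = 3, exact sign-flip permutation test, two-sided, p = 0.75). Against promoter peaks it was -0.20, -0.13 and -0.09 (mean -0.14 ± 0.05 SD, n = 3, exact p = 0.25, the smallest that 3 replicates allow). Intergenic peaks were thus lower than promoter peaks in 3 of 3 replicates, and the design could not test this at 0.05. Replicates ranked the intergenic peaks alike in part, with Spearman's rho of 0.533 to 0.650 between pairs of replicates across peaks, which are not independent.

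The number of intergenic peaks was also set beside that in a longer list, by counts only and without matching single peaks. The authors' list from the pooled replicates held 5053 intergenic peaks by the same rule, so the number in the IDR list was 6.19% of it. This ratio was 7.27% for intronic, 19.99% for promoter and 1.52% for exonic peaks.

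The ETS core CCGGAA, searched on both strands within 100 bp of the summit, was present at 21 of the 313 intergenic peaks (6.71%), at 14 of 742 intronic peaks (1.89%) and at 113 of 1642 promoter peaks (6.88%). The difference from intronic peaks was 4.82 percentage points (95% interval 2.22 to 8.24, Fisher's exact test, adjusted p = 0.00406 over 20 motifs). The 20 motifs were chosen with earlier results of these data known, and the adjustment does not cover that choice. The difference from promoter peaks was -0.17 points (interval -2.81 to 3.34). The longer octamer CCGGAAGT, which contains the core, was at 6 intergenic peaks and 0 of 742 intronic peaks (Fisher's exact test, adjusted p = 0.00659). The 95% Wilson interval for intronic peaks reaches 0.515%. At promoters the octamer was at 12 peaks (0.731%). The shorter GGAAG did not pass against either class, with 20.1% of intergenic, 19.8% of intronic and 19.9% of promoter peaks. The other 292 intergenic peaks held no CCGGAA near the summit. Against flanking DNA the core did not pass: it was in 17 of the windows 500 bp away (5.43%, exact McNemar test, adjusted p = 1).

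Of the 21 peaks with the core, 17 had it within 50 bp of the summit and 13 (61.9%) were supported by all replicates, against 53.1% of the 292 without it. Their median signal was 123.3 against 104.6, and their GC content 42.7% against 37.1%; the part of base composition in the presence of the core was not tested. Of the 6 peaks with the octamer, 5 were those at dpr17 and CG4702, at jp and brwl, at CG5111 and the RNA-binding protein gene msi, at Dip-B and tal-1A, and at CG30089 and the muscle Z-disc gene Zasp52. At msi the summit (signal 143.9) lay 593 bp upstream of the gene, and the peaks at Dip-B and Zasp52 had signals of 108.1 and 107.8. The first 3 of these were supported by all replicates and the last 2 by 2 each. Other peaks with the core had Optix, cpo, numb, chn, drm or chinmo as a neighbour, and some of these lay nearer to another gene. The summits lay 16885 bp from Optix but 643 bp from CG14762, and 26789 bp from numb but 203 bp from Gdi. They lay 25725 bp from drm, with the TSS of CG43815 2062 bp away, and 33247 bp from chinmo but 3851 bp from RFeSP. Still other peaks with the core lay beside Lkr, RabGGTa, CG6602, Bcat and naz.

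Against intronic peaks, 3 of the 20 motifs passed (15%): the ETS core and octamer, both more frequent, and the E-box CAGCTG, which was less frequent, with 2.56% against 6.74% (difference -4.18 points, Fisher's exact test, adjusted p = 0.0327). The ETS core passed under each of the 8 alternatives tried, the octamer under 3 and the E-box under 2. The number of motifs that passed was 2 without replicate 1, and 1 without replicate 2 or replicate 3. Against promoter peaks 4 passed (20%), all less frequent at intergenic peaks. They were TATCGATA, the DRE element of housekeeping promoters (0.639% against 9.62%, Fisher's exact test, adjusted p = 1.84e-09), CGATA, bound by the insulator protein BEAF-32 (23.0% against 43.0%, adjusted p = 1.08e-10), GGTCACAC, the M1BP element of core promoters (0.319% against 6.27%, adjusted p = 1.47e-06), and the same E-box (2.56% against 14.98%, adjusted p = 1.08e-10). Within the 50% of IDR peaks with the highest signal the M1BP difference was -3.41 points and no longer passed (Fisher's exact test, adjusted p = 0.163), while under the 7 other alternatives its adjusted p was 1.99e-10 to 0.0419. The BEAF-32 word is contained in the DRE, so these counts overlap. These 3 promoter elements were less frequent at intergenic summits than at promoters, with shares close to those of intronic peaks (0.270%, 22.9% and 0.539%). The classes were set by distance to a TSS, so that promoter elements would differ between them whether or not Ets65A used them. These p-values therefore do not bear on its binding.

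**Figure D4:**
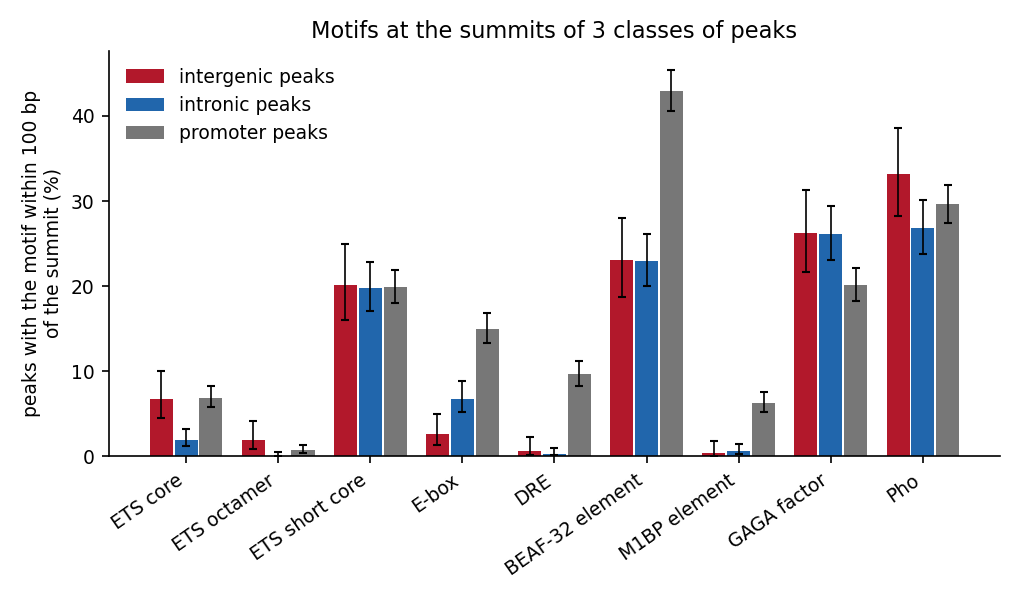
Share of peaks with a motif within 100 bp of the summit (y axis, %) for intergenic (n = 313), intronic (n = 742) and promoter peaks (n = 1642), with 95% Wilson intervals that cover counting error over peaks only. The ETS core is as frequent at intergenic (6.71%) as at promoter peaks (6.88%), and the 3 promoter elements DRE, BEAF-32 and M1BP are most frequent at promoter peaks; the E-box is CAGCTG.

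Within the intergenic peaks, 0 of the 20 motifs differed between the summit window and the window 500 bp lower (0%, exact McNemar test, adjusted p under 0.05), and 3 did at an unadjusted p under 0.05. These were the octamer (6 summit windows against 0, exact McNemar test, adjusted p = 0.208), the E-box CAGCTG (8 against 23, adjusted p = 0.192) and the CA repeat CACACACA (8 against 21, adjusted p = 0.192). GAGAG, the GAGA factor word, was in 26.2% of summit and 22.0% of flank windows, and GCCAT, the Pho word, in 33.2% and 36.4%. The Zelda word CAGGTAG was in 4 summit windows and 1 flank window.

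All 2080 words of 6 bases, counted with their reverse complements, were compared in the same windows. At an adjusted p under 0.05, 20 words (0.962%) were more frequent at the summits and 10 (0.481%) were less so (exact McNemar test, adjusted over the 2080). CAGTGC was in 73 summit windows (23.3%) and 18 flank windows (5.75%, exact McNemar test, adjusted p = 2.44e-06), and CACTGA in 72 (23.0%) and 23 (7.35%, adjusted p = 5.83e-05). The other 8 of the 10 highest ratios were AGTATC (11.2% against 2.56%), ACTGAG (14.1% against 3.51%), TACTAA (14.7% against 3.83%), CTACAC (14.7% against 4.15%), GTAAGA (10.9% against 3.51%), TAGTAA (13.7% against 4.47%), CATCTA (11.5% against 3.83%) and ACATCT (12.1% against 4.15%). None of the 20 holds the ETS letters GGAA, and 14 hold ACT or AGT. Each of the 10 less frequent words held 3 or 4 G or C bases, as in CTGCTC (4.79% against 15.7%, exact McNemar test, adjusted p = 0.00363) and ATCCCG (0.319% against 4.15%, adjusted p = 0.0423).

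At least 1 of the 20 words was in 282 of the 313 summit windows and in 201 flank windows, and 3 or more were in 189 and 60; the words were chosen on these windows, so these counts are descriptions. They were not a mark of the strongest peaks, since the mean number per summit window was 3.49 in the 78 strongest peaks and 3.85 in the 78 weakest. In the 742 intronic peaks, which the choice did not use, all 20 words were also more frequent at the summit, 16 of them at an adjusted p under 0.05 over all 2080 words in the same exact test, which 11.3% of the 2080 passed as more frequent there; for CAGTGC the shares were 21.3% and 9.70% (adjusted p = 2.38e-07). Of the 10 less frequent words, all had a ratio below 1 in intronic peaks and 2 passed, against 12.1% of all words that passed as less frequent there. In 35 of the 313 flank windows (11.2%) the centre lay in an annotated gene, and the flanks had 41.4% GC against 37.5% at the summits; the part of base composition in the word counts was not tested. Without those 35 peaks, an alternative chosen after seeing the data, 13 words passed as more frequent and 5 as less frequent, and 12 of the 20 were among those that passed. Within the 168 peaks supported by all replicates no word passed. There 209 of the 2080 words had an unadjusted p under 0.05 (exact McNemar test), against 314 over all 313 peaks. All 10 named words kept a ratio above 1 in the 168, but they were chosen on windows that include these, so this is no separate support. Among peaks supported by the other replicates, 14 words passed without replicate 1, 6 without replicate 2 and 8 without replicate 3, against 30 in all.

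Gene lists for embryonic patterning, signalling and housekeeping, chosen with earlier results of these data known, were read by their flanking genes. The counts are set beside the 3.5% of all protein-coding genes that flank an intergenic peak and the 8.84 peaks per Mb of qualifying bases with a gene on both sides, because long intergenic stretches offer more bases.

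Of 26 segmentation genes, 8 (30.8%) flanked 10 intergenic peaks, 12.6 per Mb (exact Poisson interval 6.04 to 23.2, covering the 8.84 over all genes). Besides slp1 and slp2, the 2 with the strongest peaks were btd, a zinc finger gene of head segmentation (signal 153.8, with 20.8, 61.6 and 68.7 in the replicates), and oc, a homeobox gene of the head (118.2, with 37.1, 45.8 and 32.2). The others were kni, ems, hry and odd, with signals of 79.9 to 109.7. Replicate 1 was far below the others at btd. Of 8 Hox genes only abd-A had a neighbouring peak, with a signal of 253.9 and 79.4, 107.2 and 61.0 in the replicates.

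Of 15 chromatin and insulator genes, 4 (26.7%) flanked 7 peaks: Psc, Su(z)2, ph-d and ph-p, all of which encode Polycomb group proteins. The peaks beside Psc and Su(z)2 all lay in the same region of 2R, with summits from chr2R:12958167 to chr2R:13035336, and ph-d and ph-p shared 1 peak. The 4 genes are therefore not separate places. Qualifying bases beside the 15 genes came to only 0.0721 Mb, so that the rate was 97.1 per Mb, but 2 of the 5 peaks beside Psc overlapped each other as given above. The single peak between ph-d and ph-p (signal 128.0) had 24.7, 51.0 and 51.1 in the replicates. No insulator protein gene of the list had a neighbouring intergenic peak.

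Of 14 EGFR signalling genes, 3 (21.4%) flanked 6 peaks, 31.1 per Mb. The gene sty, for the antagonist Sprouty, flanked 3, the strongest at a signal of 232.1 with 79.7, 81.9 and 75.2 in the replicates. The gene aop, for the ETS repressor Yan, flanked 2, at signals of 169.6 (43.9, 63.0 and 58.2) and 87.6 (23.4, 35.3 and 33.3). All 5 of these peaks were supported by all replicates, while the peak beside vn, which encodes a ligand of the receptor, had 79.2 and was supported by 1. Among the 8 ETS family genes aop was the only one with a neighbouring intergenic peak.

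Of 34 neural patterning transcription factors, 7 (20.6%) flanked 10 peaks, 12.4 per Mb (exact 95% Poisson interval 5.94 to 22.8, which covers the 8.84 over all genes). The strongest of these peaks were beside tup, an Islet-type gene (signal 122.7), toy, a Pax6 gene (119.3), zfh2 (119.0) and ey, the other Pax6 gene (90.8), of which the last 3 are on chromosome 4. At zfh2 the replicates had 8.64, 46.5 and 62.8, the lowest value of the 3 again being that of replicate 1. Of 29 mesoderm and muscle genes, 4 (13.8%) flanked 6 peaks. All 4 are T-box genes: Doc2 (strongest signal 159.3), Doc1 (128.7), mid (101.2) and H15 (95.1). The Doc2 peak had 47.8, 61.1 and 50.9 in the replicates, close to one another.

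Of 27 axon guidance and adhesion genes, 4 (14.8%) flanked 5 peaks: robo2 and unc-5, for receptors of Slit and of Netrin (signals 185.1 and 163.6), caps (83.1) and comm (72.7). In the proneural and neuroblast list these were numb (131.5) and SoxN (79.6), 2 of 19. Wnt4 and wg shared 1 peak (146.2) between them and fz4 had 1 (75.1), which makes 3 of 15 Wnt signalling genes. The Notch targets E(spl)mbeta-HLH (171.4) and E(spl)m3-HLH (78.1) were 2 of 12 in the Notch list, and dpp (101.9) and its antagonist sog (105.0) 2 of 15 in the TGF-beta list. The Hedgehog receptor gene ptc (138.2) was 1 of 6, drm (109.9) 1 of 9 in the endoderm and gut list, and kni and vvl 2 of 16 in the trachea and epidermis list. In these lists, as in the EGFR and the chromatin and insulator lists, only 1 to 4 genes flanked a peak. Such counts are too small for a rate to carry weight.

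Of 85 cytoplasmic ribosomal protein genes, 4 (4.71%) flanked 4 peaks, 7.04 per Mb, near the values over all genes. They were RpS23, RpL17, RpLP0 and RpS15Aa, with signals of 72.6 to 100.7. None of the 16 genes in the ecdysone and nuclear receptor list flanked an intergenic peak. Their qualifying bases came to 0.115 Mb, for which an exact Poisson interval reaches 32.0 per Mb. The 0 holds for this list only: Hr51, a nuclear receptor gene outside it, lay 298 bp from the summit of the unc-5 peak (signal 163.6).

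**Figure D5:**
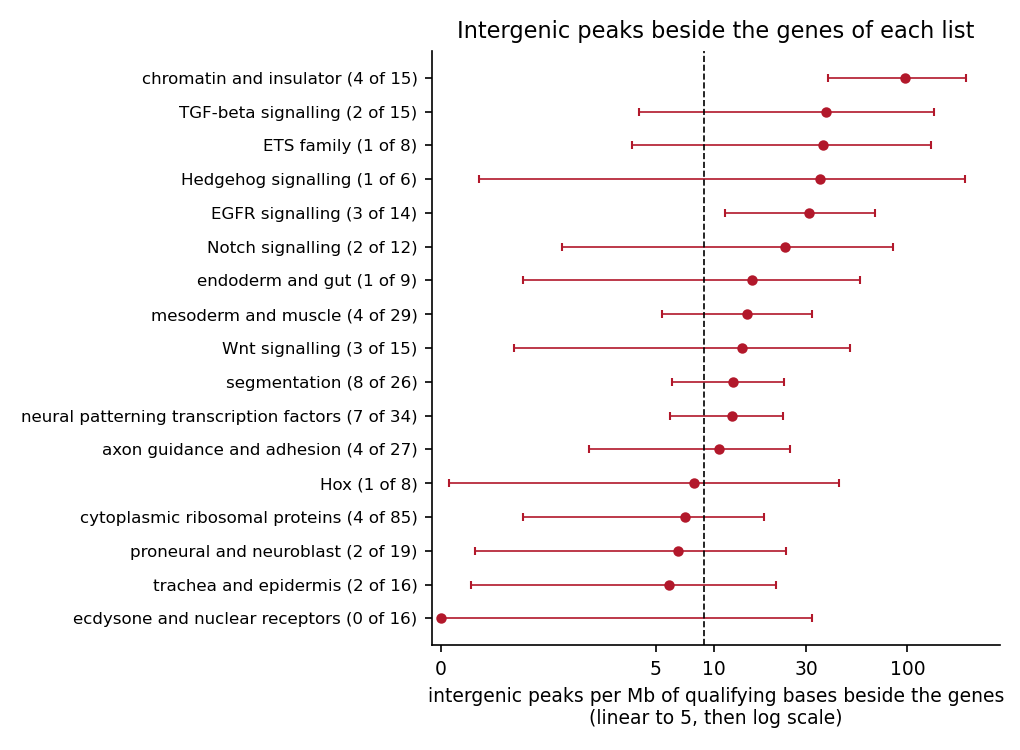
Intergenic peaks per Mb of qualifying bases beside the genes of each list (x axis, linear to 5 and then logarithmic), with exact 95% Poisson intervals (counting error only; neighbouring peaks are not independent); the flanking and the found genes of each list are in brackets. The dashed line is the rate over all genes, 8.84. The chromatin and insulator list is highest at 97.1, but from only 7 peaks beside 4 genes. The lists were chosen with earlier results of these data known.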

How the data were processed

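The peak lists of 3 biological replicates, of the pooled replicates and of the IDR step were used as deposited in the dm6 build; the dm3 lists were not used here. Per the file headers, the authors derived each list from alignments and a control, and the IDR list from the other 4. Which aligner, caller and IDR cutoff they used is not given in the sources used here. The deposited signal value is a score per peak whose scale is not stated, and the deposited q-value is given as -log10 q. The lists contain no reads, which leaves sequencing depth unknown; intervals cover counting error over peaks only. The IDR list held 2780 peaks, each replicate list was read to its 2780 strongest (1390 and 5560 as alternatives), and the alternative IDR threshold kept 1390.

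Summits were placed with Ensembl release 115 (BDGP6.54) on 6 arms; sequence came from the RefSeq copy of the same assembly. Shares were compared by Fisher's exact test, paired windows by the exact McNemar test and replicate signals by exact sign flips (scipy 1.17.1), with Benjamini-Hochberg adjustment at 0.05; p-values over peaks do not measure the spread between embryos. The 20 motifs and 17 gene lists, like the members, were chosen with earlier results of these data known. Genes were named by a rule: neighbours of the 20 strongest supported peaks, groups of 4 or more, the 5 farthest peaks and up to 4 genes per list by signal. Neighbouring genes given beyond that rule were chosen after their values were seen. A few genes named by the rule are not reported here. The tests were tested on simulated data.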

Additional observations from a re-analysis of the deposited data

How the results depend on the processing

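No paired analysis was possible because all samples form 1 group. Reading only the 50% of IDR peaks with the highest signal left 141 intergenic peaks beside 236 genes, 14.9% of them in groups, with 1 motif passing against intronic peaks and 0 words of 6 bases against flanks (158 at an unadjusted p under 0.05), and support differing by 0.0777 points from intronic and 0.802 points from promoter peaks. With 2 times as many peaks read per replicate these differences were 2.62 and 0.286 points. Against promoter peaks the difference was -4.56 points when 50% of the peak had to overlap, -4.23 when the replicate summit had to lie inside it, and -7.92 to -5.72 with a replicate left out, with an adjusted p under 0.05 in 1 of these 3 cases. The log2 signal difference from intronic peaks was 0.011 at a promoter distance of 1000 bp and -0.035 to 0.0053 with a replicate left out. A promoter distance of 250 or 1000 bp moved the median TSS distance to 1811 or 4367 bp. Joining distances of 2000 and 10000 bp put 12.5% and 28.8% of peaks in groups. The words of 6 bases that passed numbered 15 at a promoter distance of 1000 bp, 10 and 14 with windows of 50 and 200 bp each side, 0 in peaks supported by all replicates, 6 to 14 with a replicate left out and 18 with flanks outside genes. Motifs passing against intronic peaks numbered 1 in peaks supported by all replicates and 1 to 2 with a replicate left out, and 8 passed against promoter peaks with windows of 200 bp each side. The cause of these changes was not tested. Some of these settings hold fewer peaks, while windows of 50 and 200 bp each side kept all 313. Of the single motifs and words, 77 values stayed on the same side of the threshold and 79 kept their direction but no longer passed; none changed direction. The settings reuse peaks on which the words were chosen, so a kept direction is no separate support for a word. Signal values without read counts limit precision: a weak peak cannot be told from a shallow library.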

Other observations

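Several intergenic peaks combined a high signal with a low value in replicate 1. At the second peak beside tara the lists of replicates 1, 2 and 3 gave 40.1, 124.2 and 134.8, at Sol1 and Cyp9f2 49.6, 104.8 and 133.7, and at btd 20.8, 61.6 and 68.7. Replicate 1 was the lowest of the 3 at 220 of the 308 intergenic peaks that overlapped a peak in all lists, and replicate 2 was the highest at 205 of the 313. This order is not particular to intergenic peaks. Median signals in replicates 1, 2 and 3 were 27.7, 44.3 and 38.3 for intronic and 32.3, 46.5 and 40.4 for promoter peaks, against 28.1, 42.6 and 38.0 for intergenic peaks. All these signals are values on each list's own scale, which was not stated to be common to the replicates.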
